A study of Homo sapiens with 4 samples.

Results

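Inflammasomes are cytosolic complexes that detect infection and cell damage, and the genes described here code for their sensors (NLRP1, NLRP3, NLRC4 and AIM2), their adaptor (PYCARD), the inflammatory caspases (CASP1, CASP4 and CASP5), the pore-forming protein GSDMD and the ATP-gated channel P2RX7. The 10 genes were chosen by symbol for their place in this pathway among the 24424 gene symbols counted in each library. Read counts came from 4 libraries, 1 per condition, of the established human bronchial epithelial line BEAS-2B, whose genotype is given as wild type. Control cells were untreated, LPS cells received lipopolysaccharide, the outer membrane component of gram-negative bacteria, for 2 hr, and WT PDZ+LPS and mut PDZ+LPS cells first received the wild-type or the mutant form of a PDZ peptide for 24 hr and then LPS for the same 2 hr. The peptide was derived from the PDZ domain of the junction protein ZO-1. No library with a peptide alone was analysed here, so a peptide is compared only in the presence of LPS.

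In the textbook pathway a sensor assembles with PYCARD (also called ASC) and activates caspase-1, which cuts the precursors of IL-1β and IL-18 and also GSDMD, whose freed N-terminal part forms pores in the plasma membrane. Caspase-4 and caspase-5 bind intracellular LPS themselves and cut GSDMD without a separate sensor. P2RX7 lets potassium out of the cell when extracellular ATP is high, a common trigger of NLRP3. Activation takes place by assembly and cleavage of proteins, which RNA counts do not measure.

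The genes fell into 3 sets by the counts behind them. The 5 genes CASP4, GSDMD, CASP1, PYCARD and NLRP1 averaged 16 or more normalized counts across the libraries and are called measurable here. P2RX7, NLRC4 and NLRP3 were low, with more than 3 counts in at least 1 library but a mean under 16, and AIM2 and CASP5 were near-absent, with 0 counts in every library. A normalized count is the deposited count divided by a size factor of its library.

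The sequences upstream of CASP4, CASP5 and PYCARD are shown because these genes come from both ends of that scale. CASP4 and CASP5 are neighbours on chromosome 11 and code for the 2 LPS-binding caspases, and CASP4 had the highest per-length level of the 10 genes while CASP5 had no count. Each window runs from 250 bases before to 50 bases after a transcript start, as given by RefSeq for GRCh38.p14, all 3 on the minus strand. In the first pair capitals mark the bases that are identical in the alignment of CASP4 (chr11:104968525-104968824) with CASP5 (chr11:105023119-105023418). In PYCARD (chr16:31202711-31203010) capitals mark CpG dinucleotides.
CASP4: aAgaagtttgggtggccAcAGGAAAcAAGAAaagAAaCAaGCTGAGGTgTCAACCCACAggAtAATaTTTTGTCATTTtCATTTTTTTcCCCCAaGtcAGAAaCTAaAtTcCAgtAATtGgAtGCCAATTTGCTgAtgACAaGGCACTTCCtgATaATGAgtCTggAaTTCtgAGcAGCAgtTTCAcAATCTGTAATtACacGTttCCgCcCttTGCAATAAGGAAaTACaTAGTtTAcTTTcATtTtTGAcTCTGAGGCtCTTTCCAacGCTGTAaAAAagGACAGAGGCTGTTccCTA
CASP5: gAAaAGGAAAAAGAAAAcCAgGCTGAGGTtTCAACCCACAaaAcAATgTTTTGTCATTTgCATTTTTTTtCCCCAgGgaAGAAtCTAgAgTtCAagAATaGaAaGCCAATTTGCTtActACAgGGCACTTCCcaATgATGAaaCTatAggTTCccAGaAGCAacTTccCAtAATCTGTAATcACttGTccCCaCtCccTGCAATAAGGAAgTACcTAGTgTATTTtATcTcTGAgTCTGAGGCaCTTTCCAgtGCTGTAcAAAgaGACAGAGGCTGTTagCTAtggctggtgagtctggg
PYCARD: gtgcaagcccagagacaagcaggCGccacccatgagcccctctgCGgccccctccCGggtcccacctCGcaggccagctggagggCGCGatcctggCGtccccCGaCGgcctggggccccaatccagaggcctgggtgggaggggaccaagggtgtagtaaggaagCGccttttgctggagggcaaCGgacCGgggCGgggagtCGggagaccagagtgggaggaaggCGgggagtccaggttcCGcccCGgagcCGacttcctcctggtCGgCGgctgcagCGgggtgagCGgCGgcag

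The CASP4 and CASP5 windows were identical at 215 of 320 alignment columns (67.2%), whereas the other pairs among the 7 genes with a window were identical at 40.4 to 49.4%. PYCARD had 23 CpG dinucleotides and a GC content of 72%, more CpGs than 64.2% of the 34796 distinct windows in the table. The other windows held fewer: 3 in CASP4, 0 in CASP5, 2 in AIM2, 4 in P2RX7, 5 in NLRP3 and 2 to 6 in the 3 windows of NLRC4. Across the table, the median was 26 CpGs for genes that averaged 16 or more normalized counts and 4 for genes without a count. The interferon-stimulated response element, searched on both strands as GAAA and GAAA spaced by 2 bases of any kind, was found at 2 overlapping places in CASP5 and once in AIM2, the 2 genes with no count, and in 3.57% of all windows. An AP-1 motif (TGANTCA, 7.73% of windows) was found in AIM2, and a TATA box (TATAAA, 11.6% of windows) in NLRP3 and in 2 windows of NLRC4. An NF-kB motif, GGG and TTTCC spaced by 2 bases of any kind, present in 1.91% of windows, was in no window of the 7 genes. These are matches of letters in a reference sequence, and no binding was measured. NLRP1, CASP1 and GSDMD are not in the sequence table and are named only.

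Depth was 24823347 counts without treatment and 25155647 with LPS alone, and it was 23446600 and 19682929 with the wild-type and the mutant peptide before LPS. The size factors, in the same order, were 1.15, 1.06, 0.990 and 0.851. A single library per condition leaves no replicate spread to test against, so the text prints no p-values. The exact 95% intervals describe the error of counting reads and nothing else. Reads that carry no molecular identifier can be copies of 1 molecule, so the intervals can be too narrow for the counting of molecules. All 12 epithelial markers averaged 16 or more normalized counts. Of 12 myeloid markers only CD14 and CD68 did, PTPRC, TYROBP and CD163 were at 0 in every library, and the summed myeloid level ranged from 737 to 909 normalized counts against 82627 to 114510 for the epithelial markers. The 5 lymphoid markers summed to at most 0.87. The mut PDZ+LPS sample stood apart by transcript length: across 12107 genes, which are not independent replicates, Spearman's rank correlation of the log2 fold change with length was -0.605 for mut PDZ+LPS/LPS, and for WT PDZ+LPS/LPS it was 0.0752. Log2 fold changes that involve mut PDZ+LPS are therefore given as counted and after a correction that removes the trends over transcript length and GC content.

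**Figure D1:**
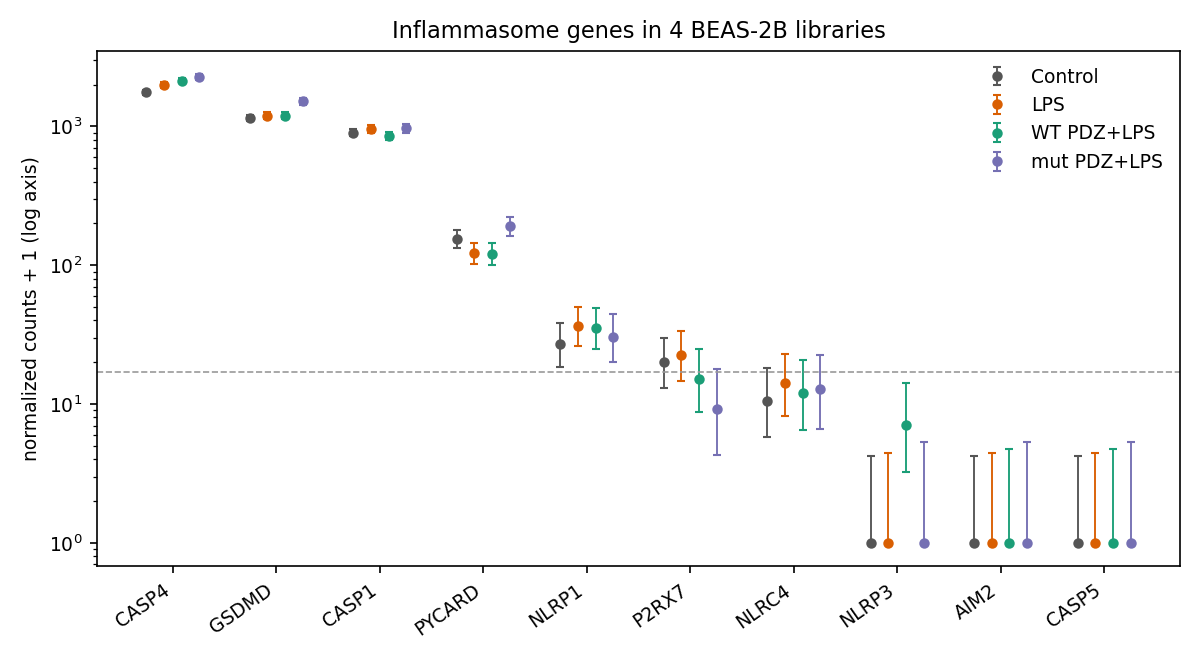
Normalized counts plus 1 (log axis) of the 10 inflammasome genes in each of the 4 libraries; points are single libraries, bars are exact 95% Poisson counting intervals and the dashed line marks a normalized count of 16. CASP4, GSDMD and CASP1 lie highest, from 850 to 2275, in all 4 libraries, and AIM2 and CASP5 lie at 0 counts throughout.

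Among the sensors, NLRP1 was the only measurable gene. NLRP1, which responds to proteases and to other cell stress and is the principal inflammasome sensor of many human epithelia, had 30 counts in Control and 38 in LPS, and with a peptide 34 (WT) and 25 (mut). In the same order (Control, LPS, then WT and mut PDZ with LPS), which holds for every series of values below, the normalized counts were 26.1, 35.7, 34.3 and 29.4, so the 3 LPS-treated libraries were the higher ones, but all 4 counting intervals overlapped. The highest NLRP1 level was 1.37 times the lowest. In bulk RNA of this kind, fewer cells with a transcript and less of it per cell cannot be told apart.

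NLRC4, which assembles after NAIP proteins bind bacterial flagellin or secretion-system proteins, had 11, 14, 11 and 10 counts in the same order. Its normalized counts were 9.57, 13.2, 11.1 and 11.7, a range of 1.38 times with overlapping intervals. NAIP, its partner, was well covered, with 279, 237, 251 and 296 counts.

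NLRP3, the sensor of ion flux and membrane damage in macrophages, was listed at 0 counts in Control, LPS and mut PDZ+LPS and at 6 counts in WT PDZ+LPS. Taking 0 as 3 counts per library, NLRP3 was at least 2.15-fold higher in WT PDZ+LPS than in LPS and at least 2.32-fold higher than in Control. It was at least 1.72-fold higher in WT PDZ+LPS than in mut PDZ+LPS. These bounds use the 6 counts as they stand, without their counting error, so they are not confidence limits. The exact interval of those 6 counts was 2.20 to 13.1, which includes the 3 counts that stand for 0. No ratio interval is given for pairs with 0 counts. Those 3 counts equal 0.121, 0.119, 0.128 and 0.152 CPM, the usual unit of counts scaled to a common library total.

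AIM2, a sensor of cytosolic DNA, had 0 counts in all 4 libraries. Its chromosome 1 neighbour IFI16, a DNA sensor of the same PYHIN family, had 2634, 2485, 2201 and 1901 counts, and its log2 fold change for LPS/Control was 0.028. The 2 relatives thus lay at opposite ends of the scale side by side. AIM2 shared no 50-base stretch with another annotated transcript.

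PYCARD, the adaptor that links sensors to caspase-1, had 177, 129, 119 and 162 counts, or 154, 121, 120.2 and 190.3 normalized counts. LPS and WT PDZ+LPS were the low libraries and nearly equal, and mut PDZ+LPS was the high one, 1.58 times the lowest. The gene lies on chromosome 16, and 86.7% of the 50-base stretches in its transcript also occur in reverse in the antisense gene PYCARD-AS1. PYCARD-AS1 had 56, 44, 46 and 57 counts. The library kit keeps the strand, but no source used here states whether the counting did, so reads of the gene and its antisense partner cannot be told apart with certainty.

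CASP4, the caspase that binds intracellular LPS, had 2020, 2113, 2109 and 1936 counts. Its normalized counts were 1758, 1988, 2130 and 2275, with Control the lowest library and each of the 3 LPS-treated libraries above it. CASP1, which cuts pro-IL-1β, had 1035, 1020, 842 and 824 counts, or 901, 959, 850 and 968 normalized counts. CASP1 was the most even of the measurable genes, with a range of 1.14 times. CASP5 had 0 counts in all 4 libraries. In the chromosome 11 cluster the genes stand in the order CASP4, CASP5, CASP1, CARD16 and CARD17, so the uncounted CASP5 lies between both counted caspases. CARD16, a decoy made only of a recruitment domain like that of caspase-1, had 247, 308, 251 and 275 counts, and CARD17 had 0. CASP1 shared 6.20% of its 50-base stretches with CARD16, and CASP4 shared 0.474% with CASP5, so reads from CASP1 and CARD16 may be split in part between them.

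GSDMD, the pore-forming gasdermin on chromosome 8, had 1321, 1273, 1180 and 1289 counts. The normalized counts were 1150, 1197, 1192 and 1515, with the first 3 libraries close together and mut PDZ+LPS above them. P2RX7, on chromosome 12, had 22, 23, 14 and 7 counts in the same order, or 19.1, 21.6, 14.1 and 8.22 normalized counts. Its mean of 15.8 lay just under the limit of 16, while that of NLRP1, the next gene up, was 31.4. P2RX7 was the most uneven gene with counts in every library, with a range of 2.63 times, and both peptide libraries lay below LPS and Control. Its counting intervals, scaled to depth, nevertheless overlapped in every pair of libraries. Intervals of its ratios are given with the comparisons below. Its neighbour P2RX4, another ATP-gated channel, had 208, 177, 190 and 133 counts. On the same strand, 1.35% of the P2RX7 50-base stretches occur in other annotated transcripts. Further stretches occur in reverse in other genes, such as 0.802% in PCCA and 0.430% in P2RX4.

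**Figure D2:**
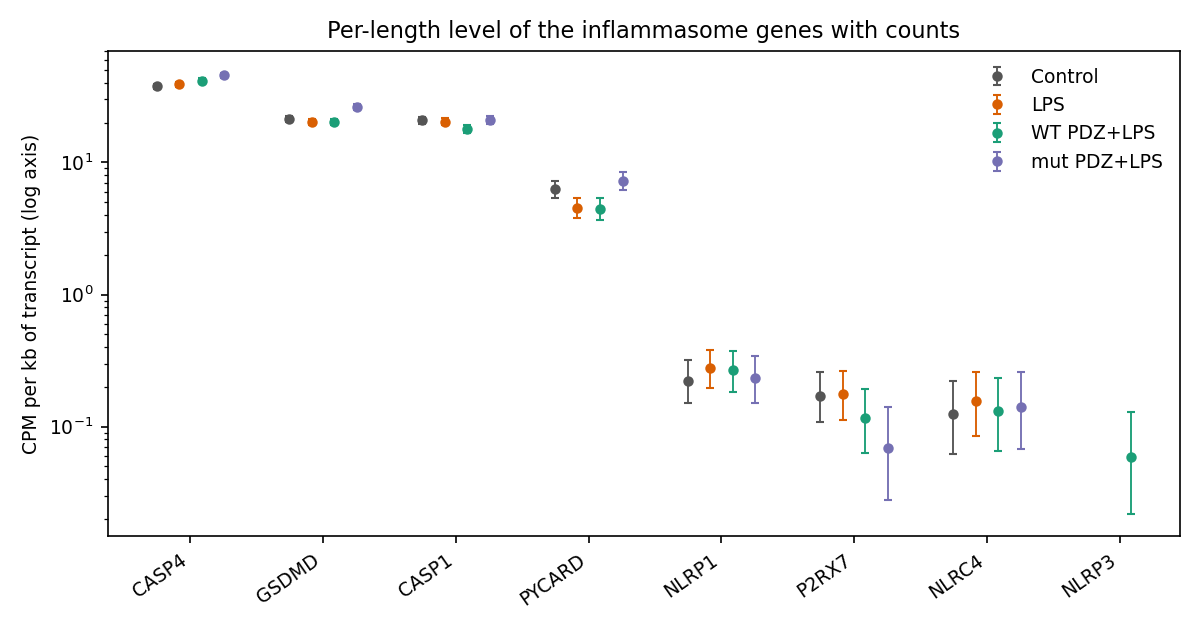
CPM per kb of the longest protein-coding transcript (log axis) for the 8 genes with counts, 1 point per library with exact 95% Poisson intervals; libraries in which a gene had 0 counts are not drawn. PYCARD lies 16.3 to 31.0 times above NLRP1, and NLRP1, P2RX7, NLRC4 and NLRP3 form the low end. NLRP3 is drawn in WT PDZ+LPS only, at 0.0593. Levels are as counted and are not corrected for the length trend of mut PDZ+LPS.

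Levels can be ranked between genes only per length, here as CPM per kb of the longest protein-coding transcript. CASP4 led in every library, at 37.7 in Control and 38.9 in LPS, and with a peptide at 41.7 (WT) and 45.6 (mut). GSDMD followed at 21.3, 20.3, 20.2 and 26.2, and CASP1 at 20.8, 20.3, 17.9 and 20.9. The counting intervals of these neighbours overlapped except in mut PDZ+LPS. PYCARD came next at 6.27, 4.51, 4.46 and 7.24. A gap followed, since the per-length level of NLRP1 was 0.222, 0.277, 0.266 and 0.233. The ratio of PYCARD to NLRP1 was 28.2, 16.3, 16.8 and 31.0. All per-length levels are as counted, since the length and GC correction was applied to fold changes only. The mut PDZ+LPS levels and ratios thus keep the length trend of that library, and the transcripts of PYCARD and NLRP1 have 1137 and 5444 nt. P2RX7 (0.0689 to 0.177) and NLRC4 (0.124 to 0.155) could not be separated from each other by counting error in any library. Among the 10 genes, CASP4, CASP1 and GSDMD, which carry out cleavage and pore formation, thus stood above the adaptor in per-length level. The adaptor stood above all 4 sensors and P2RX7. This order did not extend to all other sensors of the pathway. NLRP2 (9.79 to 13.3) lay above PYCARD in every library, and IFI16 (32.74 to 37.01) lay above CASP1 and GSDMD as well. MEFV lay above PYCARD in LPS (7.86) and WT PDZ+LPS (7.26), but below it in Control and mut PDZ+LPS. The other listed sensors lay below PYCARD in every library.

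The first comparison set the library with 2 hr of LPS against Control. LPS/Control called none of the 10 genes, of which 6 had at least 16 normalized counts in at least one of the 2 libraries. A call needed a difference of at least 2-fold at that level, and 4.87% of all genes met it (3.46% higher and 1.41% lower). The log2 fold change of CASP4 was 0.18 (counting interval 0.088 to 0.27). Under total-count scaling, which shifts the median of all genes to -0.13, it was 0.046. PYCARD was the only measurable gene lower in LPS, at -0.34 (-0.68 to -0.0087). CASP1 was at 0.091 (-0.035 to 0.22) and GSDMD at 0.059 (-0.053 to 0.17), and total-count scaling turned these to -0.040 and -0.073. Upper-quartile scaling gave GSDMD a value of -0.0026. NLRP1, at 0.44, had an interval from -0.28 to 1.19. The 2 intervals that excluded 0, those of CASP4 and PYCARD, compare with 47.3% of all genes. The median over the 5 measurable genes was 0.091 and that of all genes -0.0010.

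Each peptide library was also set against Control. WT PDZ+LPS/Control called none of the 6 tested genes, with 4.7% of all genes called, and its values were 0.28 for CASP4 (0.19 to 0.37) and -0.36 for PYCARD (-0.71 to -0.015). In mut PDZ+LPS/Control, where 8.09% of all genes were called, 1 of 6 tested genes was called, P2RX7, at -1.13, with an interval of -2.69 to 0.058 from 7 against 22 counts. The corrected value of P2RX7 was -0.87, short of 2-fold. P2RX7 was tested in this pair only through its level in Control (19.1 normalized counts, against 8.22 in mut PDZ+LPS). CASP4 was at 0.37 (0.33 corrected), GSDMD at 0.40 (0.054 corrected) and PYCARD at 0.30 (-0.21 corrected), so CASP4 lay above Control on both scales and PYCARD changed side. The 3 comparisons with Control share that library and are not independent of each other.

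**Figure D3:**
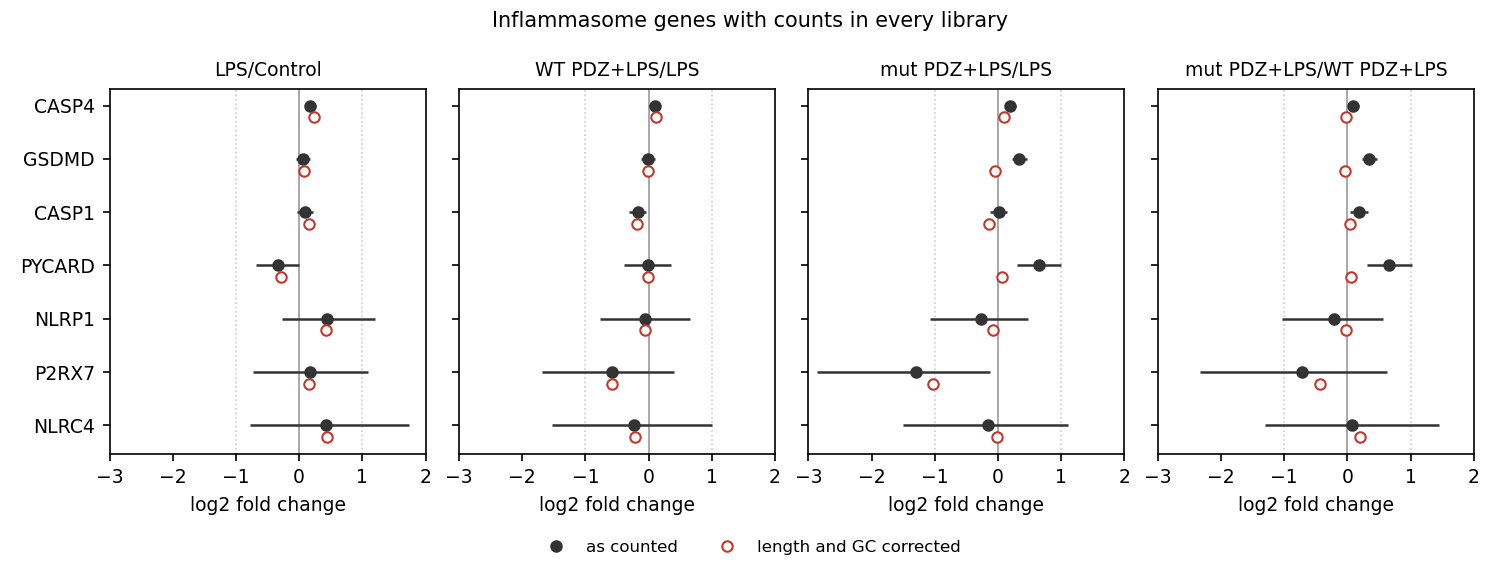
Log2 fold changes of the 7 inflammasome genes with counts in every library, in 4 comparisons, 1 per panel; filled points are values as counted with exact 95% counting intervals, open points are values after the length and GC correction, and dotted lines mark 2-fold. The PYCARD and GSDMD points of mut PDZ+LPS/LPS move from 0.65 and 0.34 to 0.059 and -0.045 with the correction, and P2RX7 stays beyond 2-fold at -1.02.

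The second question was how the WT PDZ+LPS library differed from the LPS library. WT PDZ+LPS/LPS called none of 6 tested genes, with 1.37% of all genes called. CASP1 was at -0.17 (-0.31 to -0.041) and CASP4 at 0.099 (0.012 to 0.19), the 2 measurable genes whose intervals excluded 0, against 22.1% of all genes. CASP1 in WT PDZ+LPS was 0.886 times its level in LPS. GSDMD was at -0.0072 (-0.12 to 0.11) and PYCARD at -0.014 (-0.39 to 0.36), so a 2-fold difference lies outside both intervals. NLRP1 was at -0.057 (-0.77 to 0.65). P2RX7, at -0.58 from 14 against 23 counts, had an interval of -1.69 to 0.41, which leaves room for a 2-fold lower or an unchanged level.

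The mutant peptide library was set against LPS in the same way. Of 6 tested genes mut PDZ+LPS/LPS called 1, P2RX7, and 3.95% of all genes were called. P2RX7 reached the level needed for a call only in LPS (21.6 normalized counts), not in mut PDZ+LPS (8.22). With 14.1 in WT PDZ+LPS, it was not tested between the peptides. Among the pairs with mut PDZ+LPS, it was thus tested only against the libraries in which it was highest, and its calls depend on that. P2RX7 was at -1.29 (-2.86 to -0.13) from 7 against 23 counts, and at -1.02 after the correction. PYCARD was at 0.65 (0.31 to 0.99), GSDMD at 0.34 (0.23 to 0.45) and CASP4 at 0.19 (0.10 to 0.28). These were the 3 measurable genes whose intervals excluded 0, as did 63.1% of all genes. After the length and GC correction they were at 0.059, -0.045 and 0.089. CASP1 went from 0.013 to -0.14 and NLRP1 from -0.27 to -0.074. PYCARD, with a transcript of 1137 nt, is the shortest of the measurable genes, and P2RX7 and NLRP1, with 5161 and 5444 nt, are the longest of the 10. The length trend of this library is thus of the same sign as the uncorrected values of these genes, and its part in the P2RX7 call was not tested beyond the correction.

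The 2 peptides were compared with each other as 1 pair at the same times. Doses are not given in the labels. In mut PDZ+LPS/WT PDZ+LPS, 0 of 5 tested genes were called (4.26% of all genes). The intervals of 4 measurable genes excluded 0, as did those of 63.9% of all genes. PYCARD was at 0.66 (0.31 to 1.02), GSDMD at 0.35 (0.23 to 0.46), CASP1 at 0.19 (0.047 to 0.33) and CASP4 at 0.095 (0.0054 to 0.18). The corrected values were 0.055, -0.040, 0.044 and -0.021. P2RX7 was at -0.71 (-2.33 to 0.62, -0.44 corrected) and NLRC4 at 0.075 (-1.31 to 1.46, 0.20 corrected), intervals too wide to separate equal levels from a 2-fold difference.

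The rest of the pathway gives the setting for these values. Of 52 other genes with a role in inflammasome assembly or output, 35 averaged 16 or more normalized counts. LPS/Control called 9 of 36 tested genes higher and 0 lower, against 3.46% and 1.41% of all genes. These genes were listed with earlier results of these data known, so the numbers describe the list and enrichment was not tested. The median log2 fold change of the 35 genes was 0.21.

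The largest differences were those of the IL-1 cytokines. IL1B had 3, 591, 337 and 548 counts, a log2 fold change of 7.27 for LPS/Control with an interval of 6.18 to 10.02. IL1A, which codes for the related cytokine IL-1α, had 7, 1145, 827 and 970 counts and a value of 7.25 (6.42 to 8.78). IL18, whose product caspase-1 also cuts, was at 1458 counts already in Control and 2097 in LPS, and its value of 0.64 (0.54 to 0.73) was not called. IL33 had no count in any library. IL1RN, the receptor antagonist, had a single count, in WT PDZ+LPS.

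Among other sensors, 1 of 5 tested genes was called. MEFV, which codes for pyrin, the sensor mutated in familial Mediterranean fever, had 96, 692, 596 and 395 counts, a value of 2.95 (2.65 to 3.29) for LPS/Control. Its per-length level in LPS was 7.86 on the same scale, against 0.277 for NLRP1, the highest of the 4 sensors above. NLRP2, with 1183, 1076, 923 and 689 counts, was the only other NLRP gene among those listed with a mean of at least 16 and was at -0.025. CARD8, a sensor related to NLRP1, was at -0.42.

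The group listed as regulators of assembly, not all of which act on assembly itself, accounted for 5 of the 9 calls, out of 14 tested. IRF1, a transcription factor that drives interferon-responsive genes, had 1228 counts in Control and 13985 in LPS (3.62). The guanylate-binding proteins, which coat intracellular bacteria and bring caspase-4 to LPS, were called in 4 cases, GBP1 at 1.56, GBP2 at 2.55, GBP3 at 2.47 and GBP4 at 1.25. GBP5, at 0.65 from 18 against 12 counts, was not called. PANX1, an ATP-releasing channel, was at 0.87, IRF2 at 0.75 and NEK7, the kinase that NLRP3 requires, at 0.38. Neither DPP9 (0.040) nor DPP8 (0.14), which hold NLRP1 and CARD8 inactive, was called.

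The executioner side held 1 call. NINJ1, which ruptures the plasma membrane after pores have formed, had 807, 3309, 2573 and 3086 counts and was at 2.15 (2.04 to 2.26) for LPS/Control, the only call among 5 tested gasdermin and rupture genes. The other gasdermins lay between -0.25 for GSDME (listed as DFNA5) and 0.20 for GSDMB. Among other death caspases, CASP8 was at -0.24 and CASP10 at 0.42, and neither was called. None of 3 tested decoys or inhibitors was called either, with CARD16 at 0.43.

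**Figure D4:**
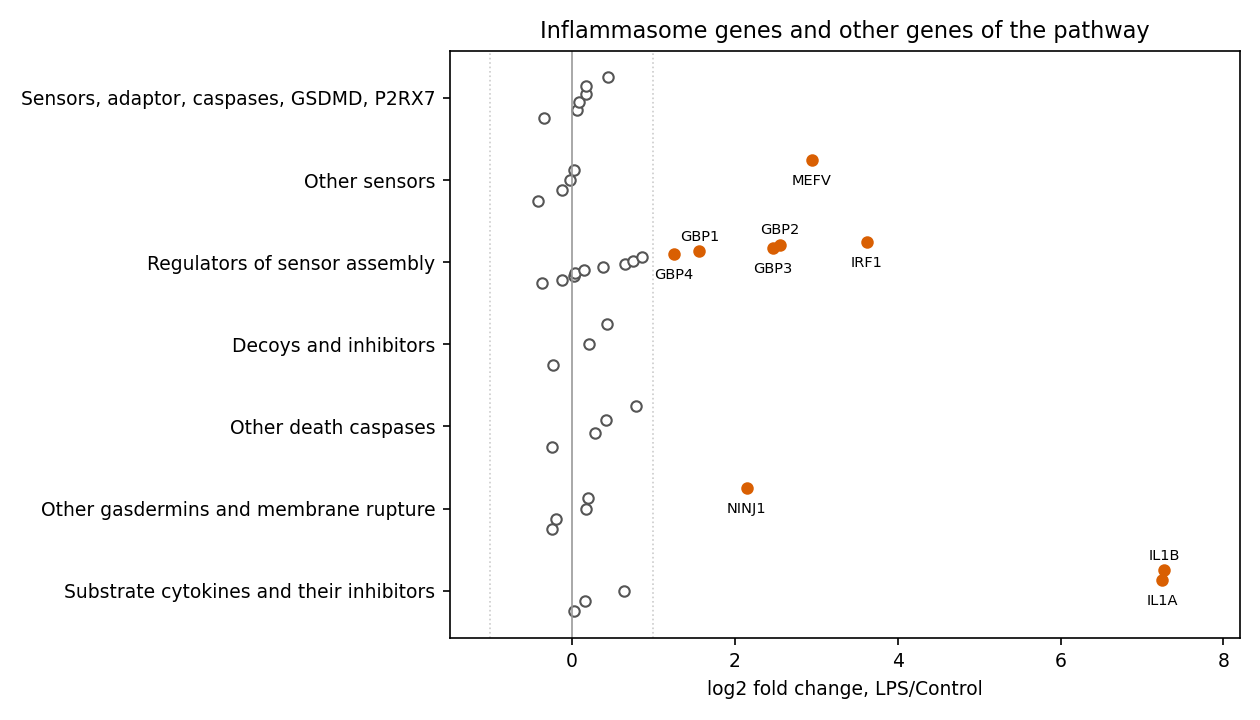
Log2 fold change for LPS/Control of the 6 inflammasome genes and 36 other pathway genes with at least 16 normalized counts in at least one of both libraries, by group (vertical position within a group only separates points). Filled points with names are the 9 genes called at 2-fold (dotted lines); the 6 inflammasome genes in the top group lie between -0.34 and 0.44.

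Neither peptide comparison with LPS called any of the 36 tested pathway genes, beside 1.37% (WT) and 3.95% (mut) of all genes. For the 9 genes called in LPS/Control, the values of each comparison are set side by side here. In WT PDZ+LPS/LPS, IL1B was at -0.71 (-0.91 to -0.51), GBP2 at -0.53 (-0.75 to -0.32), IRF1 at -0.41 (-0.45 to -0.37), IL1A at -0.37 (-0.50 to -0.24) and NINJ1 at -0.26 (-0.34 to -0.19). GBP3 was at -0.34 (-0.45 to -0.23), GBP1 at -0.28 (-0.36 to -0.20), MEFV at -0.11 (-0.27 to 0.047) and GBP4 at -0.055 (-0.37 to 0.26). Of all genes, 22.1% had an interval that excluded 0 in this comparison. In mut PDZ+LPS/LPS IL1B was at 0.21 (-0.0019 corrected), GBP2 at -0.053 (-0.15 corrected), IRF1 at 0.045 (0.10 corrected), IL1A at 0.082 (-0.061 corrected) and NINJ1 at 0.22 (-0.38 corrected). GBP3 was at -0.24 (-0.19 corrected), GBP1 at -0.10 (-0.059 corrected), MEFV at -0.49 (-0.49 corrected) and GBP4 at 0.13 (0.46 corrected). The correction turned the sign for IL1B, IL1A and NINJ1. Between the peptides 1 of 36 tested pathway genes was called, beside 4.26% of all genes: GBP5, at 1.02 (-0.049 to 2.29, 1.25 corrected) from 20 against 11 counts. The LPS library is shared by both peptide comparisons with LPS and by LPS/Control, and the 9 genes were picked for being higher in it. Their lower values against LPS are thus not independent of that choice, and an effect of the peptide was not tested.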

How the data were processed

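RNA from 4 BEAS-2B libraries (poly(A) selection, NEBNext Ultra II Directional kit, paired-end 100-base reads) was analysed, 1 library per condition, grouped by the labelled treatment. The authors removed adapters and reads under Q20, mapped with TopHat (genome build hg19 in the submitters' processing notes) and deposited raw counts, 1 whole number for each gene symbol. The counting tool, annotation and strand setting are not given in the sources used here. The study's methods name FPKM and geometric normalization, but the deposited values are whole-number counts and were used as such.

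Size factors were geometric medians of ratios, and log2 fold changes used 1 added normalized count. Calls asked for a 2-fold or larger difference and for 16 or more normalized counts (a log2 value of 4) in the higher library of the pair. A gene was near-absent at 3 counts or fewer in every library. Intervals were exact (Clopper-Pearson for ratios, Poisson for counts), and 0 was taken as 3 counts per library in a fold. Transcript length and GC content were those of each gene's longest protein-coding transcript (GENCODE 29), found for 12107 of 13072 genes (356 by an older symbol), and their lowess trends (span 0.3) were removed in the correction. The text names all 10 genes and genes of the listed pathway groups, of which 2 are not reported here. No gene was named for a pattern like a member's, since no measurable member was called. The members and lists were chosen with earlier results of these data known. The steps were tested on simulated data. Scaling, pseudocount, expression rule, fold, correction and choice of members were varied. Software was R 4.3.3 with edgeR 4.0.16 (TMM factors) and Python 3.11.15 with scipy 1.17.1, pandas 2.3.3, numpy 2.4.6, matplotlib 3.10.9 and statsmodels 0.14.6.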

Additional observations from a re-analysis of the deposited data

How the results depend on the processing

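With 1 library per condition no replicate could be left out. No paired analysis was possible because the labels give no replicate numbers and each condition has 1 library. A reversed sign was looked for only in called inflammasome genes, which means P2RX7 in mut PDZ+LPS/Control and mut PDZ+LPS/LPS, and none was found. Values of genes that were not called did change sign, for example PYCARD in mut PDZ+LPS/Control from 0.30 to -0.21 with the length and GC correction. The number of measurable genes was 5 under TMM, total-count and upper-quartile scaling, 4 at a mean of at least 64 and 7 when more than 3 counts in every library were asked for instead. The call of P2RX7 was the one most open to settings: in mut PDZ+LPS/Control the number of called inflammasome genes went from 1 to 0 with a pseudocount of 5, with the length and GC correction, at 3-fold and at 64 normalized counts, and in mut PDZ+LPS/LPS it went to 0 at 3-fold and at 64 normalized counts and to 2 at 1.5-fold. Without an expression rule it was 1 in each of the 3 comparisons between WT PDZ+LPS and another library, where the gene is NLRP3 with its 6 counts and the fold is that of normalized counts plus 1, not the bound that takes 0 as 3 counts, and at 1.5-fold mut PDZ+LPS/WT PDZ+LPS gave 1. The median of the measurable genes became -0.040 for LPS/Control and -0.080 for WT PDZ+LPS/Control under total-count scaling, by the shift of all genes given above. With the length and GC correction it became -0.045 for mut PDZ+LPS/LPS and -0.021 between the peptides, and over all of the 10 genes with a count the former, uncorrected, was 0.0065. At 1.5-fold the pathway calls numbered 14 for LPS/Control, 1 for the WT peptide and 3 for the mutant peptide against LPS, and 6 between the peptides. Without an expression rule the last 3 numbers were 6, 5 and 9. The single pathway call between the peptides went to 0 with a pseudocount of 5, at 3-fold and at 64 normalized counts. Of 210 values of single inflammasome genes under another scaling, pseudocount or the correction, 16 lay outside their counting interval, 10 of them by the correction and 6 by total-count scaling. Depth limits NLRP1, NLRC4, NLRP3 and P2RX7, whose counts were 38 or fewer in every library.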
